A study of Mus musculus with 12 samples.

Results

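Cluster 9 is a group of tumor macrophages marked by Lyve1, Cd163, Folr2, Ccl8 and Retnla. Lyve1, Cd163 and Folr2 are known from macrophages that live in connective tissue rather than arriving with inflammation. The origin of the cluster 9 cells was not tested. Its members are the cells to which the study's own clustering gave the number 9, in subcutaneous tumors of MC38, a colon carcinoma cell line of the mouse, in female hosts. They were 1022 of 93126 cells and 1022 of 68059 macrophages. Transcripts were counted by 10x Genomics 5′ single-cell RNA sequencing, as unique molecular identifiers (UMIs), each of which stands for 1 captured transcript.

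The hosts were F1 mice (CCF1) of C57BL/6J and 1 of 7 strains of the Collaborative Cross (CC), a set of inbred lines that mix the genomes of several founder strains, or C57BL/6J (B6) mice themselves. The CC parents were CC001/UncJ, CC002/UncJ, CC007/UncJ, CC036/UncJ, CC075/UncJ, CC079/TauUncJ and CC080/TauUncJ. Hosts were 8 to 12 weeks old. Once the MC38 tumor measured 75 to 110 mm3, they were given 200 µg of anti-PD-1 antibody (aPD1) or of its isotype control in 1 dose, and tumors were collected after 48 h. Cells were sorted as 90% CD45-positive and 10% CD45-negative, so shares of cells refer to that mixture. The 48 tumors came in 12 pools, each 1 library of an isotype and an aPD1 tumor of 2 host strains, which gives 24 pairs of tumors that share a pool and a host. Responder strains (CC001, CC002 and CC075) and non-responder strains (CC036, CC079 and CC080) were classed by the study, which followed tumor growth in separate animals. These classes are not in the sample labels, and B6 and CC007 have no class. Hashtag antibodies told the tumors of a pool apart and were never shared between isotype and aPD1 tumors, so hashtag and treatment cannot be told apart.

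Tissue-resident macrophages settle in organs early and keep themselves by dividing in place, whereas monocytes from blood give rise to most macrophages of a growing tumor. A perivascular and interstitial kind of resident macrophage, found in skin, fat, muscle and many other tissues, carries LYVE1, a receptor for hyaluronan, together with the folate receptor FOLR2, the hemoglobin scavenger receptor CD163 and the mannose receptor MRC1, and has little MHC class II. LYVE1 is also the classic marker of lymphatic endothelium. RETNLA (also called RELM-alpha or FIZZ1) is a secreted protein that macrophages make in response to interleukin-4, and CCL8 is a chemokine that draws monocytes and some T cells.

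Cluster 9 had macrophage transcripts, and the defining markers of most other cell types were at or near 0. All 5 of its markers were detected, and the summed level of the 7 general monocyte and macrophage markers had a median of 18649 CPM, the UMIs of a gene per 1000000 UMIs of the same cells, over the 20 tumors that held at least 20 cells of the cluster, against 12722 CPM in the other macrophages of those tumors. Of the endothelial and lymphatic markers, Prox1, Flt4 and Ccl21a were at 0 UMIs in all 1022 cells. The whole list of 7 gave 69 UMIs in 57 cells, a range of 0 to 161 CPM per tumor and a median of 6.94 CPM, against 26.99 CPM in the other macrophages. The T and NK cell markers had a median of 5.18 CPM against 5.07 CPM in the other macrophages, with Klrb1c at 0. Ms4a1 of B cells, Cacnb3 and Ccl22 of migratory dendritic cells, Cpa3, Mcpt4 and Kit of mast cells, and Epcam, Krt8, Krt18 and Krt19 of epithelial and MC38 cells were also at 0. Markers of fibroblasts gave 63 UMIs in 52 cells, with a highest tumor value of 30.1 CPM. Their median was 13.9 CPM, which is higher than the 5.40 CPM of the other macrophages. Lists of dendritic cells and granulocytes were not at 0. The 4 markers of type 1 dendritic cells, among which Xcr1 was at 0, gave 1197 UMIs in 592 cells, with 147 to 508 CPM per tumor and a median of 247 CPM against 274 CPM in the other macrophages. Those of plasmacytoid dendritic cells, with Klk1 at 0, gave 2017 UMIs in 659 cells, with 230 to 964 CPM and a median of 437 against 507 CPM. These lists hold Irf8 and Bst2, which macrophages also express. Type 2 dendritic cell markers had a median of 9.72 against 80.1 CPM, and granulocytic markers 33.8 against 44.5 CPM, with 254 UMIs in 135 cells. The part of dendritic cells and granulocytes in the results was not tested. Gene comparisons without cells that held a marker of the T and NK, B, fibroblast, endothelial and lymphatic, or epithelial and MC38 lists were an alternative.

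The depth of cluster 9 cells was close to that of other macrophages. The median was 3470 UMIs per cell (quartiles 1964 and 5535), against 3482 in other macrophages, with 1.12% mitochondrial and 12.2% ribosomal protein UMIs against 1.32% and 16.0%. All cells of a tumor summed to between 88816 and 17713491 UMIs, and the cluster 9 cells of the 20 tumors with at least 20 of them to between 41257 and 462642. Of the barcodes, 10.9% of all cells and 12.6% of cluster 9 cells carried one that was found in more than 1 library, and no barcode belonged to more than 1 cell of cluster 9. One animal number stands on 2 tumors of CC080, the isotype tumor of pool 3 and the aPD1 tumor of pool 4.

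The 5 marker genes lie on 4 chromosomes of GRCm38. Lyve1 is at chr7:110850607-110863239 on the minus strand, Folr2 at chr7:101839988-101857194 on the minus strand, Cd163 at chr6:124304656-124330527, Ccl8 at chr11:82115185-82116799 and Retnla at chr16:48842551-48844461, the last 3 on the plus strand. The promoter of Retnla is printed as that of the marker that varied most between tumors, Ccl8 as that of the marker that differed between classes, and Cd163 as that of a scavenger receptor of which the cluster held 50.9% of all UMIs. Each is 300 bases of RefSeq sequence on GRCm38.p6, from 250 before to 50 after the start site. They cover chr16:48842359-48842658, chr11:82114935-82115234 and chr6:124304401-124304700, and capitals mark matches to the 2 motifs described next.
Retnla: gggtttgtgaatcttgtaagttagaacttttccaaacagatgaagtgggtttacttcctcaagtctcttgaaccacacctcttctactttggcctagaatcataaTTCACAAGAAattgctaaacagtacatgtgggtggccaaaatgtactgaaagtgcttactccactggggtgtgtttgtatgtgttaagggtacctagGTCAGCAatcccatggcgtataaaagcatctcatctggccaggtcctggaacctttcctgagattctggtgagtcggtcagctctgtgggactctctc
Ccl8: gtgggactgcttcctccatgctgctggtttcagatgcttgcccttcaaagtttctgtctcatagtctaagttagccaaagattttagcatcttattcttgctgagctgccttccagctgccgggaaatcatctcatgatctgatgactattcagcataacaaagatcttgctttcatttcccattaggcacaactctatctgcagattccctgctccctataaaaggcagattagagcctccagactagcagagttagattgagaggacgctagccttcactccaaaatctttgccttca
Cd163: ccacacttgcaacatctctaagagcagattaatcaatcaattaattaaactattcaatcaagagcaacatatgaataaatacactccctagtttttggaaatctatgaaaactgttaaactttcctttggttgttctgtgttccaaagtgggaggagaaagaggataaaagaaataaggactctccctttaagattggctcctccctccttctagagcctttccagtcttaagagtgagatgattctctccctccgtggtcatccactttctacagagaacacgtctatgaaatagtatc

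Both strands were searched for 2 motifs, TTC and GAA set 4 bases apart, the spacing bound by STAT6, which interleukin-4 activates, and TGCTGAC, a core bound by MAF proteins. The Retnla promoter held both, TTCACAAGAA starting 145 bases before the start site, and TGCTGAC on the other strand 48 bases before it, and the matches do not overlap. The other promoters printed held neither. The STAT6 spacing occurred in 6.95% and TGCTGAC in 4.67% of all 32851 promoters of this length. Of the 25 genes that stood highest in the cluster against the other macrophages, 20 had a promoter in the table, with 21 promoters in all. The STAT6 spacing was in 2 of these (Cbr2 and Retnla) and TGCTGAC in 3 (Cbr2, Fcna and Retnla). A match is a description of the letters, not of binding.

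Against the other macrophages of the same tumors, cluster 9 stood out by its 5 markers and by the other genes named here, the 25 of largest difference among those of at least 50 CPM in its pooled cells. The difference is a description, since the clustering used these genes. Retnla averaged 2041 CPM in cluster 9 and 2.99 CPM in the other macrophages, and was higher in 19 of 20 tumors. Lyve1 averaged 178 against 0.479 CPM and was higher in 18 of 20. Cd163 averaged 112 against 2.05 CPM, Folr2 324 against 23.5 CPM and Ccl8 2830 against 103 CPM, and each of these was higher in 20 of 20 tumors. The mean within-tumor differences, on the log2(CPM + 1) scale, were 7.91 ± 2.84 (SD, n = 20) for Retnla, 5.87 ± 2.48 for Lyve1, 5.05 ± 1.10 for Cd163, 4.57 ± 0.64 for Ccl8 and 3.81 ± 0.87 for Folr2.

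The other genes of the 25 highest had various roles. Ednrb, the endothelin B receptor, averaged 160 against 1.00 CPM, and Fgfr1, a fibroblast growth factor receptor, 47.5 against 0.780 CPM. Among secreted recognition molecules, Fcna, a ficolin that starts complement activation, averaged 152 against 3.47 CPM, the complement component C4b 155 against 7.42 CPM, and Gas6, the bridging ligand between dying cells and the receptors MERTK and AXL, 209 against 13.7 CPM. The growth factors Igf1 (115 against 6.86 CPM) and Pdgfc (121 against 8.38 CPM) were higher in 20 of 20 tumors, but of 10 growth factor and matrix genes at or above 50 CPM only 4 were higher and 6 were lower, with a median difference of −0.61 and a summed level that was higher in 5 of 20 tumors. Ltc4s, which makes leukotriene C4, averaged 582 against 36.9 CPM, the carbonyl reductase Cbr2 578 against 21.97 CPM, and Pltp, the phospholipid transfer protein, 921 against 103 CPM. Ccl6 reached 4099 against 530 CPM and Wfdc17 2850 against 276 CPM. The remaining members of the 25, Rcn3, Tns1, Npl, Calml4, Tppp3, Lyz1, Fxyd2 and Fcgrt, had mean within-tumor differences between 2.92 and 3.95. Lyz1 shares much sequence with its neighbor Lyz2, so its counts may include reads of that copy.

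The 10 genes furthest below the other macrophages were of mixed roles, with 2 chemokines among them. Cxcl9 averaged 45.4 against 662 CPM and Cxcl10, its companion ligand of the receptor CXCR3, 20.95 against 323 CPM. Mmp12, macrophage elastase, averaged 7.49 against 162 CPM, and Acod1, which makes itaconate, 6.09 against 78.2 CPM. Il7r (5.504 against 55.7 CPM), Ly6i (26.5 against 178 CPM), the cystine transporter Slc7a11 (4.23 against 58.6 CPM), the integrin Itgax, or CD11c (9.09 against 78.4 CPM), the histone gene Hist1h1b (11.3 against 85.0 CPM) and Serpina3g (4.52 against 39.2 CPM) completed the 10 lowest, and all 10 were lower in 20 of 20 tumors. Among 3506 genes of at least 50 CPM in either population, 126 were higher and 162 lower in all 20 tumors, and the median difference was −0.07 on the log2 scale.

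The gene lists differed in direction. Of 12 residency and scavenger receptor genes at or above 50 CPM, 11 were higher in cluster 9, with a median difference of 2.37 against −0.07 over all genes. Lyve1, Cd163 and Folr2 are members of this list, so it is not separate from the markers. They included Mrc1 (1433 against 257 CPM), the clotting factor subunit F13a1 (1432 against 252 CPM), Clec10a (104 against 13.3 CPM) and Colec12 (114 against 19.2 CPM), and the exception was the scavenger receptor Msr1 (382 against 478 CPM). Timd4, a phosphatidylserine receptor of some resident macrophages, averaged 11.1 CPM in the 11 non-responder and 7.86 CPM in the 7 responder tumors. The other macrophages of the 20 tumors averaged 2.59 CPM. Some tumors had no UMI of Timd4 in cluster 9, among them the 2 without a class. Of 10 complement genes 9 were higher, while C3 was lower at 34.8 against 94.5 CPM. Of 6 iron and heme genes 5 were higher, led by the heme oxygenase Hmox1 (770 against 230 CPM) and the heme transporter Slc48a1 (86.2 against 30.5 CPM). The ferritin chain Fth1 was lower at 7324 against 10109 CPM, and the summed level of the list was higher in 10 of 20 tumors.

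Chemokines went both ways. Of 17 at or above 50 CPM, 9 were higher, the marker Ccl8 among them, and 8 lower. Ccl7 (1575 against 493 CPM), Ccl9 (977 against 247 CPM) and Pf4 (3247 against 794 CPM) were higher in 20 of 20 tumors, whereas Cxcl16 (137 against 341 CPM) was lower in 20 of 20 and Ccl5 (84.0 against 277 CPM) in 19. Of 9 alternative activation genes 7 were higher, with a median difference of 1.063 and a summed level that was higher in 20 of 20 tumors. This list and its sum hold the marker Retnla. The interleukin-4 receptor chain Il4ra was higher in every tumor (196 against 92.4 CPM), but Arg1, arginase, was level at 774 against 739 CPM, and Chil3 (32.7 against 110 CPM) was lower in 18 of 20 tumors.

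All 17 interferon-gamma response genes at or above 50 CPM were lower on average, with a median difference of −0.88, and 7 of them were lower in 20 of 20 tumors. Their summed level ran from 757 to 2605 CPM (median 1214) in cluster 9 and from 1664 to 5154 CPM (median 3038) in the other macrophages. The other macrophages include clusters 2, 5 and 26, which the study linked to interferon-gamma stimulation. The part of these clusters in the gap was not tested. All 7 MHC class II genes were lower on average, with a median difference of −0.64, and their sum had a median of 13024 against 18053 CPM. All 7 type I interferon-stimulated genes were lower on average (median −1.32), as were 11 of 12 inflammatory monocyte-derived genes (median −0.99), among which Il1b was at 320 against 1015 CPM. Cluster 9 still averaged 415 CPM of Ccr2, another gene of that list. All 5 cell cycle genes counted, of 15 listed, were lower (median −2.53), with Mki67 at 19.9 against 92.1 CPM. List genes were counted at 50 CPM in either population. Those that, like Mki67, reached it only in the other macrophages were bound to be lower, so these counts are descriptions. For transcription factors the count was even, 5 of 10 higher, with Maf (713 against 270 CPM) and Klf4 (374 against 212 CPM) above and Irf8 (80.6 against 144 CPM) below in 20 of 20 tumors.

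The markers differed in how far they were confined to the cluster. Cluster 9 held 973 of the 1117 Lyve1 UMIs of all 93126 cells, which is 87.1%, in 1022 cells. It held 61.5% of the UMIs of Ednrb, 50.9% of Cd163, 45.01% of Fcna and 37.2% of Cbr2. For Ccl8 the share was 27.4%, for Retnla 25.7% and for Folr2 22.4%. Pooled over all tumors, Retnla stood at 1726 CPM in cluster 9 and at 690 CPM in cluster 14, whose cells carry markers of type 2 dendritic cells. Lyve1 was next highest in cluster 22, at 5.44 CPM against 224 CPM, and Folr2 in cluster 27, at 49.6 against 378 CPM. By Spearman correlation of pooled CPM over 5195 genes, given as a description, the clusters most like cluster 9 were cluster 26 (0.868, 17007 cells), cluster 27 (0.848, 4115 cells) and cluster 5 (0.842, 12064 cells), which are all macrophages. Ccl8 was at 216, 72.4 and 31.97 CPM in them, and Cd163 at 2.34, 3.88 and 0.451 CPM.

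The 5 markers varied between tumors to very different degrees. Of 3202 genes of at least 50 CPM in cluster 9, Retnla had the fifth largest SD of log2(CPM + 1) over the 20 tumors (3.09) and Lyve1 the ninth (2.67), whereas Cd163 (1.27) was 363rd and Folr2 (0.757) 743rd, and the median SD was 0.5676. Genes with tumors at 0 UMIs get a large SD on this scale. A summed level cannot tell fewer cells that carry a transcript from less of it per cell.

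Retnla ran from 0 to 7060 CPM. In the 5 CC079 tumors it was 4375, 3722, 1437, 3203 and 5101 CPM, and in the 3 CC080 tumors 7060, 3528 and 148 CPM. The 3 CC036 tumors had 383, 941 and 208 CPM, and the 3 CC001 tumors 107, 72.7 and 1268 CPM. In CC075 it was 0 in the aPD1 tumor of pool 11 and 3272 and 1474 CPM in the isotype tumors of pools 10 and 11. All 5 CC079 tumors were therefore above all CC036 and CC001 tumors, whereas CC080 (148 to 7060 CPM) and CC075 (0 to 3272 CPM) overlapped all 3 of these hosts. The single tumors of CC002, CC007 and B6 had 80.2, 1562 and 2888 CPM. Only 130 of the 1022 cells held a Retnla UMI. Of its 7485 UMIs, 102 cells held 99.5%, and the highest count in a single cell was 1063. The Retnla level of a tumor, and with it this order of hosts, can therefore rest on few cells.

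Lyve1 followed another order of hosts. It was 411, 463 and 160 CPM in the CC036 tumors, 356, 301, 281, 94.2 and 258 CPM in the CC079 tumors, and 108, 57.6 and 5.91 CPM in the CC080 tumors. The CC001 tumors had 254, 0 and 344 CPM and the CC075 tumors 68.0, 212 and 41.2 CPM. CC002 had 120, B6 18.8 and CC007 0 CPM. CC036 and CC080 did not overlap, while CC001 ran from 0 to 344 CPM, with its 0 in a tumor of 20 cells.

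Cd163, Folr2 and Ccl8 were present in every tumor. Mean Cd163 was highest in CC036 (249 CPM, 159 to 310) and lowest in CC080 (24.3 CPM, 12.0 to 43.2), and these ranges did not overlap. Folr2 ran only from 121 to 690 CPM. Ccl8 was highest in the CC007 aPD1 tumor (11810 CPM) and in the CC075 aPD1 tumor (10467 CPM), and the 3 CC001 tumors had 5149, 4145 and 1772 CPM. Its levels in the 5 CC079 tumors (584 to 2056 CPM) and the 3 CC080 tumors (554 to 1217 CPM) were lower than in every CC075 tumor (3174 to 10467 CPM). These host levels are descriptions of 1 to 5 tumors each. All 3 CC080 tumors were aPD1 tumors, while most CC036 tumors were isotype tumors. Host and treatment therefore cannot be fully told apart between CC036 and CC080, for Cd163 as for Lyve1.

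**Figure D1:**
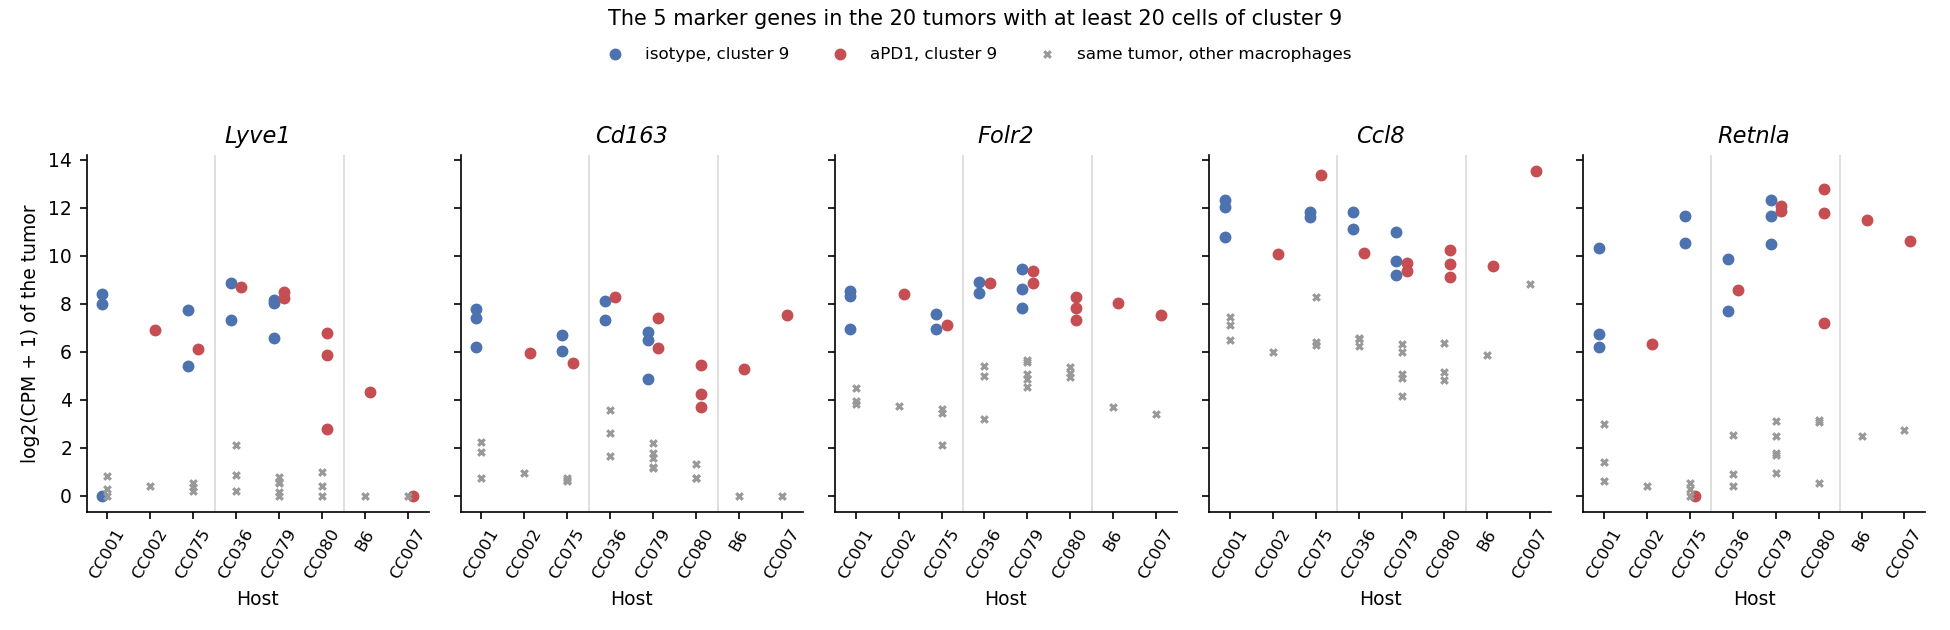
Level of the 5 markers, as log2(CPM + 1), in the cluster 9 cells of each of the 20 tumors with at least 20 of them, by host and treatment (blue isotype, red aPD1), with the other macrophages of the same tumor as grey crosses. Folr2 runs from 121 to 690 CPM, while Retnla and Lyve1 reach 0 in single tumors.

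Single cells rarely carried all markers. A UMI of Folr2 was found in 49.4% of the 1022 cells, of Ccl8 in 43.5%, of Lyve1 in 21.5%, of Cd163 in 18.2% and of Retnla in 12.7%. Among 11486 cells of the T and NK clusters, which should lack these genes (median 1874 UMIs per cell against 3470), the shares were 0.148%, 1.45%, 0.0261%, 0.0348% and 0.209%. Cluster 12, a T and NK cluster whose pooled profile was closer to cluster 9 (0.773), is left out of these cells. With each cell thinned to 1000 UMIs, which left 949 cells and dropped 73, the shares in cluster 9 were 23.8% for Folr2, 35.0% for Ccl8, 10.7% for Lyve1, 8.64% for Cd163 and 9.48% for Retnla. In 6000 other macrophages drawn at random the unthinned shares were 5.12%, 7.70%, 0.0667%, 0.500% and 0.367%. Of the 1022 cells, 292 (28.6%) had no UMI of any of the 5 genes, 286 had 1 of them, 221 had 2, 147 had 3, 63 had 4 and 13 had all 5.

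Retnla was the most concentrated. The tenth of the cells with the most Retnla, 102 cells, held 99.5% of its UMIs, and 1 cell held 1063. The same number of cells held 84.5% of the Cd163 UMIs, 81.8% for Lyve1, 74.3% for Ccl8 and 51.7% for Folr2. The 407 thinned cells with none of the 5 markers were still of the same profile to a lower degree. Mrc1 was found in 44.0% of them, in 71.6% of the 328 cells with 1 marker and in 80.4% of the 214 cells with at least 2, and F13a1 in 42.3%, 66.8% and 81.3%. Cxcl9 stayed low in all 3 (1.72%, 3.05% and 1.87%, against 24.996% of other macrophages thinned alike). H2-Aa, an MHC class II chain, went the other way, at 70.0%, 51.8% and 38.3%, and Fn1, fibronectin, at 60.4%, 39.3% and 37.9%. The first group comes near the other macrophages, where 65.1% had H2-Aa and 40.4% Fn1, in H2-Aa but not in Mrc1 (14.5%).

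Cells with a Lyve1 UMI had little MHC class II. At 1000 UMIs, 102 cells had one and 847 did not. H2-Aa averaged 0.578 UMIs in the former and 3.28 in the latter, and a UMI of it was found in 20.6% against 60.9%. In 7 of the 7 tumors with at least 5 cells of each kind, H2-Aa, H2-Ab1 and H2-Eb1 were lower in the cells with Lyve1, and Cd74, the invariant chain, was lower in 6. Spp1, osteopontin, and Fn1 were higher with Lyve1 in 0 of 7. Mrc1 (3.06 against 1.48 UMIs), F13a1 (3.19 against 1.32 UMIs) and Igf1 (0.333 against 0.123 UMIs) were higher in 7 of 7.

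Cells with Ccl8 and cells with Retnla overlapped but differed in other genes. A Retnla UMI was found in 5.42% of the cells with Ccl8 and in 11.7% of those without. The 332 cells with a Ccl8 UMI averaged 14.1 UMIs of Apoe, the lipid carrier, against 6.87 in the 617 cells without, and were higher in 23 of 23 tumors with at least 5 cells of each kind. Igf1 was found in 23.5% against 4.05% of them. Fn1 averaged 0.512 against 2.42 UMIs and was higher with Ccl8 in 1 of 23 tumors. Retnla averaged 0.184 against 1.86 UMIs and was higher in 3, where tumors level at 0 are not told from lower ones. These means pool hosts, which differed in Ccl8 and Retnla, and few cells held most Retnla UMIs. In the 90 cells with a Retnla UMI, Ccl8 averaged 1.60 against 2.60 UMIs in the other 859, and a UMI of Fn1 was found in 68.9% against 45.9% and H2-Aa in 72.2% against 54.9%. Folr2 was shared, at 43.3% against 21.8%, with a higher mean in 6 of 7 tumors. These splits are descriptions, since the cells were grouped by a gene of the same profile.

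Across the 20 tumors, the level of Lyve1 and the summed level of the MHC class II genes in cluster 9 ran in opposite directions, a relation that was chosen after the split of the cells had been seen. On the log2 scale, Pearson's r was −0.574 and Spearman's rho −0.656 (n = 20). No p is given, since the same cells gave the split and tumors of a host are not independent. Without the 2 tumors farthest from the median Lyve1, which both had 0 UMIs of it, r was −0.526. Within pools 1 to 5 it was −0.515 (n = 10) and within pools 8 to 12 −0.465 (n = 8). Lyve1 was also higher where the mean number of UMIs per cell was higher (r = 0.711), whose part in the relation was not tested. For Cd163 r was −0.446, for Folr2 −0.404, for Ccl8 −0.078 and for Retnla 0.130.

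**Figure D2:**
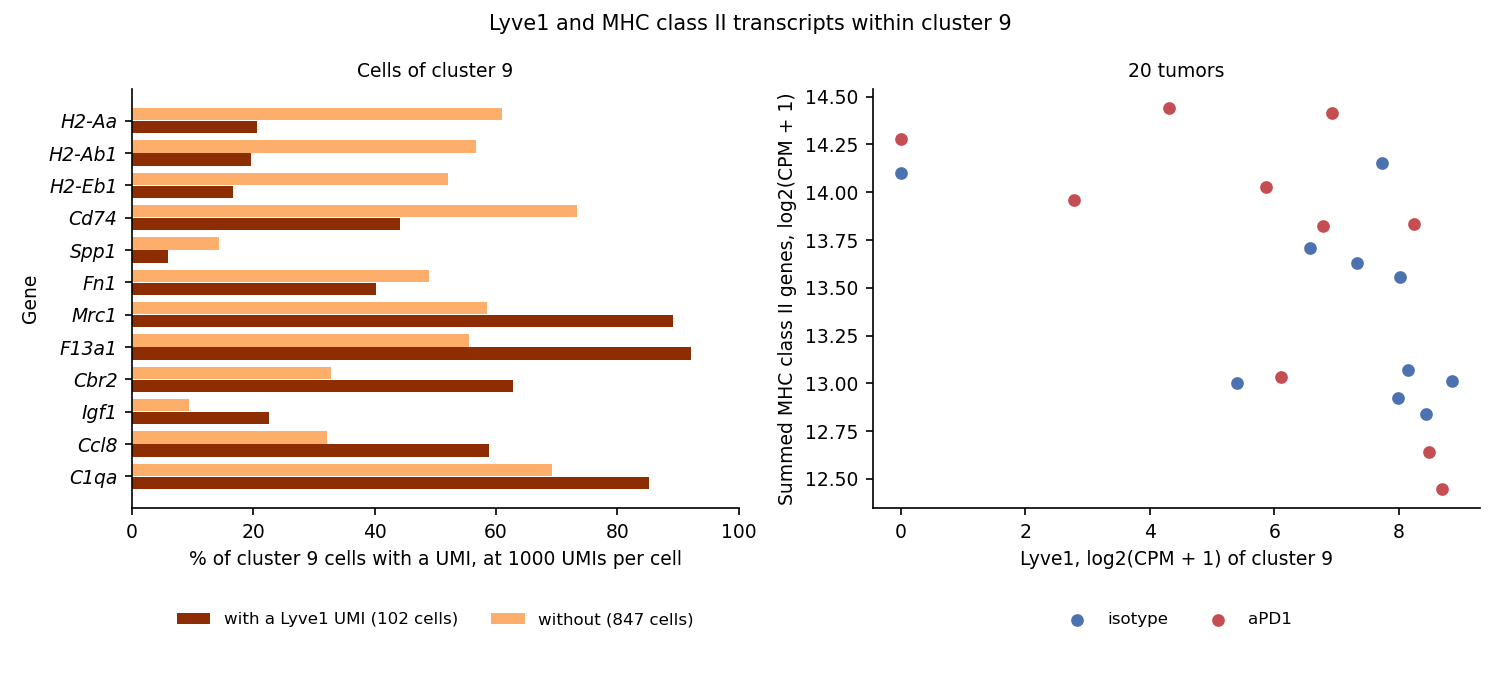
Left, percentage of cluster 9 cells with a UMI of each gene, after thinning to 1000 UMIs per cell, in the 102 cells with a Lyve1 UMI (brown) and the 847 without (orange). Right, summed MHC class II level against Lyve1 level in cluster 9, both as log2(CPM + 1), 1 point per tumor (blue isotype, red aPD1), with the 2 tumors without Lyve1 UMIs at the left edge.

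The comparison of shares asks whether responder strains, or aPD1, changed how many of these macrophages a tumor held. Cluster 9 made up 1.12% ± 1.21 of the cells of a tumor (SD, n = 48 tumors) and 1.51% ± 1.59 of its macrophages, with a lowest value of 0, a median of 0.722% and a highest of 6.65% of cells. It was at 0 in 5 tumors of 53 to 2838 cells, in which a count of 0 allows a share of up to 0.106% in the largest and 5.66% in the smallest, for counting error only. None of the 14 tests of shares passed after adjustment.

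In responder strains the isotype tumors had 0 to 6.65% (median 0.868%, mean 1.37% ± 2.02, n = 10) and the aPD1 tumors 0 to 1.54% (median 0.520%, mean 0.644% ± 0.480, n = 10). In non-responder strains the isotype tumors had 0.301 to 3.41% (median 0.949%, mean 1.501% ± 1.18, n = 9) and the aPD1 tumors 0 to 3.54% (median 1.36%, mean 1.40% ± 1.03, n = 9). All 4 ranges overlap widely. The widest gap in rank was between the classes under aPD1, where responder tumors were 0.754 percentage points lower (two-sided exact Wilcoxon rank-sum p = 0.0549, adjusted p = 0.56801). Under isotype the difference was −0.134 (exact p = 0.346, adjusted p = 0.967). aPD1 minus isotype was −0.722 in responder strains (permutation p = 0.794, higher with aPD1 in 4 of 10 pairs), −0.103 in non-responder strains (exact p = 0.931, higher in 4 of 9 pairs) and −0.232 over all hosts (permutation p = 1.00, higher in 11 of 24 pairs). Without pool 1, which holds the CC001 pair that fell by 6.43 points, these 3 differences were −0.0883, 0.0732 and 0.107, and without CC001 the first was 0.307. On the pairs of a pool and host, permuting signs within pairs gave exact or permutation p of 0.557, 0.734 and 0.768. The difference of the 2 effects was −0.619 (exact p = 0.842). As a share of macrophages the same 6 comparisons had p between 0.0811 and 1.00 before adjustment, by the same exact or permutation tests.

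By host, the mean of a pair ran from 0.353% ± 0.353 in CC002 (n = 3 pairs) to 1.80% ± 0.838 in CC079 (n = 3), with CC001 at 1.60% ± 1.31 (n = 4), CC036 at 1.46% ± 0.707, CC080 at 1.10% ± 0.339, CC075 at 0.860% ± 0.553, CC007 at 0.785% ± 0.927 (n = 2) and B6 at 0.772% ± 0.328. Apart from B6 and CC002, neighbors in this order differ by less than the larger of their SDs, and the 8 hosts did not differ by a permutation test (p = 0.311, adjusted p = 0.967). In 3 of 8 hosts all pairs moved the same way. With aPD1 the share was higher in 3 of 3 pairs of CC080, by 0.876 to 1.38 percentage points, and lower in 4 of 4 pairs of CC001 and 3 of 3 of CC079. The other 5 hosts had pairs of both signs, and CC036 went from −2.22 to 2.94 within its 3 pairs. The difference between hosts in the effect of aPD1 was not tested.

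**Figure D3:**
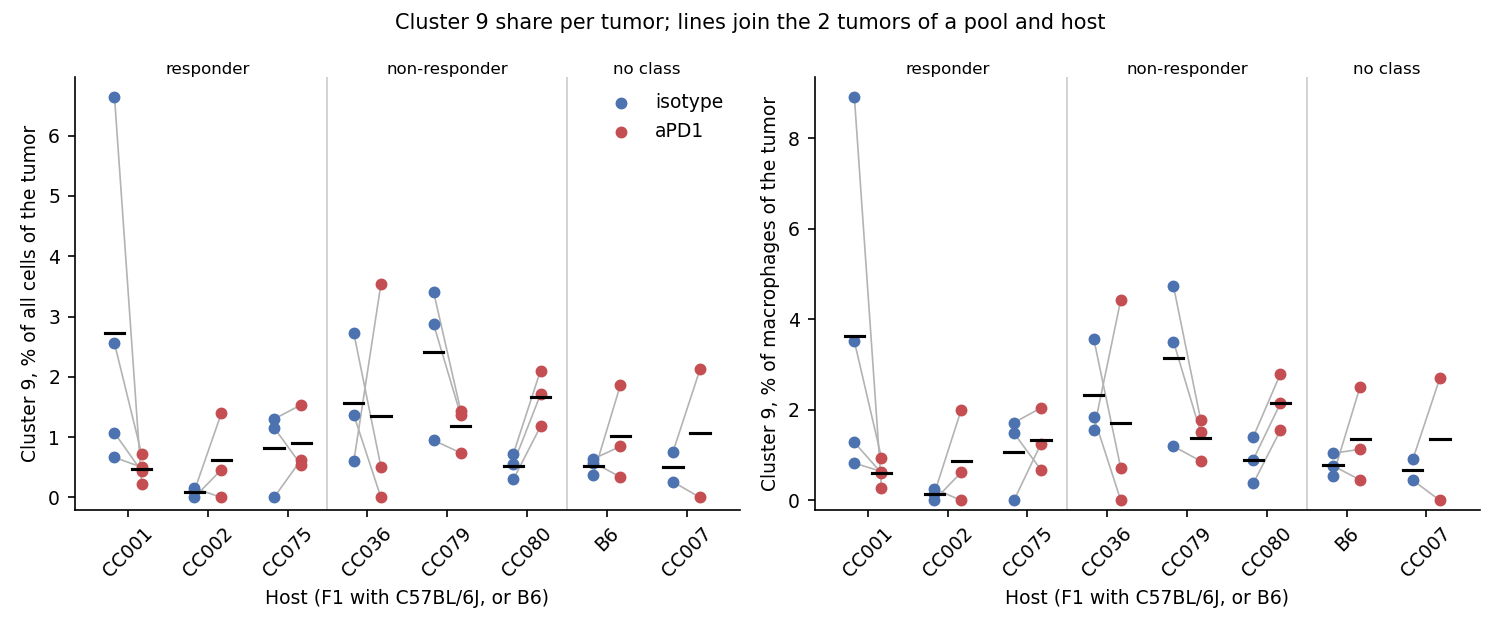
Share of cluster 9 among all cells (left) and among macrophages (right) of each of the 48 tumors, in percent, by host, for isotype (blue) and aPD1 (red) tumors, with black bars for means and grey lines joining the pair of a pool and host. The highest point is the CC001 isotype tumor of pool 1, at 6.65% of cells and 8.92% of macrophages.

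Genes were compared between classes on UMIs summed per tumor over the cluster 9 cells, for the 18 classed tumors with at least 20 of them. Responder strains gave 5 isotype tumors (3 of CC001, 2 of CC075) and 2 aPD1 tumors (CC002 and CC075), and non-responder strains 5 isotype tumors (2 of CC036, 3 of CC079) and 6 aPD1 tumors (1 of CC036, 2 of CC079, 3 of CC080). Treatment and strain are therefore partly tied, and class cannot be told apart from the genotypes of 3 strains on each side. The fit had a group for each class and treatment and weighted isotype and aPD1 equally within a class. The 2 responder aPD1 tumors therefore weigh as much as the 5 responder isotype tumors. Fold changes between classes can thus differ from the gap between class means or medians. Some markers of other cell types moved with class in these cells. The median of the type 2 dendritic cell list was 0 CPM in responder and 23.9 CPM in non-responder tumors, that of the plasmacytoid list 546 and 388 CPM, and that of the granulocytic list 51.5 and 27.2 CPM. The part of these dendritic and granulocytic lists in the calls was not tested. The T and NK list had medians of 8.01 and 2.16 CPM and the fibroblast list 22.7 and 12.0 CPM. Leaving out cells with markers of T and NK cells, fibroblasts and some other types was an alternative given below.

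Between classes, 8 of 3893 genes passed an adjusted p of 0.05 by edgeR's quasi-likelihood test, which is 0.205%, with 3 higher in responder strains (0.0771%) and 5 lower (0.128%). DESeq2's size factors gave 3 higher and 3 lower, and DESeq2's own test 18 genes. Without adjustment, 404 genes were at p under 0.05, and the median log2 fold change was −0.02. With the pool as a block, 1 gene was called, Gm10260. The same was so with counts summed per strain, without shared barcodes, and without cells holding a marker of T and NK cells or the other types left out. Without pool 1 or pool 11 the count was also 1, without pool 5, 9 or 10 it was 3, without pool 4 or 12 it was 4 and without pool 2 or 3 it was 5, and Gm10260 was called each time.

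Ccl8 was the marker that passed. It ran from 554 to 3684 CPM (median 884) in the 11 non-responder tumors and from 1083 to 10467 CPM (median 3643) in the 7 responder tumors, and the ranges overlap. The log2 fold change was 1.84 (SE 0.34, adjusted p = 0.0182 by edgeR). Without pool 11, which holds the CC075 aPD1 tumor of 10467 CPM, it was 0.64 (adjusted p = 0.790), and the call was also lost without pool 1 (adjusted p = 0.132), pool 4 (0.0598) or pool 5 (0.0649). In the other macrophages of the same tumors Ccl8 averaged 56.8 CPM in non-responder and 133 CPM in responder strains, and the class difference of cluster 9 minus that of the other macrophages was 0.28 (SE 0.21, adjusted p = 0.869 by edgeR). The higher level in responder strains was thus not shown to differ between cluster 9 and the other macrophages. The fit that gave 0.28 had no term for treatment, so it weights treatments otherwise than the fit that gave 1.84.

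Fibronectin went the other way. Fn1 ran from 1398 to 5358 CPM (median 2474) in non-responder and from 227 to 1536 CPM (median 1053) in responder tumors, and fell by 1.67 on the log2 scale (SE 0.36, adjusted p = 0.0499 by edgeR). That call was lost without any 1 of pools 1, 2, 4, 5, 9, 10, 11 and 12 (adjusted p from 0.0530 to 0.610). Havcr2, the checkpoint receptor TIM-3, ran from 36.0 to 84.9 CPM in non-responder tumors. It was 20.6 to 48.5 CPM in the 5 isotype responder tumors and at 0 UMIs in both aPD1 responder tumors (adjusted p = 0.0125 by edgeR). Because that group is at 0, the fitted fold change depends on the prior count and is left out, and the tumor values rest on 2 to 21 UMIs each where they are above 0. The antiproliferative gene Btg2 was higher in responder tumors, 194 to 476 CPM (median 290) against 64.8 to 209 CPM (median 152), with a log2 fold change of 1.17 (SE 0.24, adjusted p = 0.0406 by edgeR). The call of Havcr2 was lost without pool 1, 3 or 11 (adjusted p from 0.0702 to 0.239) and that of Btg2 without pool 1, 9, 10, 11 or 12 (up to 0.610).

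The nuclear transport GTPase Ran was lower in responder tumors, 95.3 to 194 CPM against 193 to 388 CPM (log2 fold change −0.96), as was the membrane protein Ckap4, 29.4 to 60.2 CPM against 48.2 to 162 CPM (−1.23). H2-T23, a non-classical MHC class I gene, was higher, with medians of 349 against 177 CPM (1.02). Their adjusted p were 0.0438, 0.0499 and 0.0499 by edgeR, and each of these 3 calls was lost without any 1 of 9 pools, pools 1 and 11 among them. Gm10260, a predicted gene at chr13:97760072-97760632, was at 285 to 594 CPM in the 11 non-responder tumors, at 0 in 5 of 7 responder tumors and at 11.3 and 31.8 CPM in the other two. The other macrophages had the same split, 543 to 993 CPM against 0.263 to 18.2 CPM, and B6 was at 0 and CC007 at 345 CPM. Its counts, like those of H2-T23, may include reads of near-identical copies, and reads were aligned to the C57BL/6J genome, so the level of either gene is uncertain.

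Retnla, Folr2, Lyve1 and Cd163 did not pass between classes, though all had lower fitted levels in responder strains. Retnla had medians of 3203 CPM in non-responder and 107 CPM in responder tumors (log2 fold change −3.54, SE 0.99, adjusted p = 0.229 by edgeR, 0.0104 by DESeq2), with ranges of 148 to 7060 and 0 to 3272 CPM. Summed over all cluster 9 cells of a group, tumors with fewer than 20 cells included, Retnla was at 2127 CPM (aPD1) and 2103 CPM (isotype) in non-responder and at 1109 and 953 CPM in responder strains, a smaller gap than that between the medians. Folr2 had a log2 fold change of −0.73 (adjusted p = 0.409), Lyve1 −0.73 (0.689) and Cd163 −0.49 (0.821), all by edgeR. The last 2 changed sign with the pool as a block, to 0.40 and 0.61. In the other macrophages Folr2 averaged 33.0 CPM in non-responder and 12.3 CPM in responder strains and Cd163 2.85 and 1.38 CPM. The class difference of cluster 9 minus that of the other macrophages was 0.55 for Folr2, 0.79 for Cd163, 0.25 for Lyve1 and −0.44 for Retnla, with adjusted p from 0.751 to 0.974 by edgeR, so none of the lower levels was shown to be particular to cluster 9. These differences again come from a fit without a term for treatment.

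Lists lay on both sides of the median of all genes, −0.02. Of 13 residency and scavenger receptor genes tested, 4 were higher in responder strains (median −0.39), and of the 5 markers 1 was (median −0.73). Of 11 immediate early and heat shock genes tested, 10 were higher in responder strains (median 0.59 against −0.02 over all genes), among them Junb (0.56), Fosb (0.74) and Egr1 (0.85). All 4 cell cycle genes tested were lower (median −0.69). Of 12 interferon-gamma response genes 8 were higher (median 0.30), with Cxcl9 at 2.40 (SE 0.71, adjusted p = 0.236 by edgeR) and Irf1 at 0.97. Cxcl9 ran from 0 to 272 CPM (median 10.0) in responder and from 0 to 28.3 CPM (median 7.20) in non-responder tumors. Of 6 MHC class II genes 5 were higher (median 0.25). Apart from Ccl8, none of the genes of these 6 lists passed the threshold, and across all 16 lists only Ccl8 and Fn1 did.

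**Figure D4:**
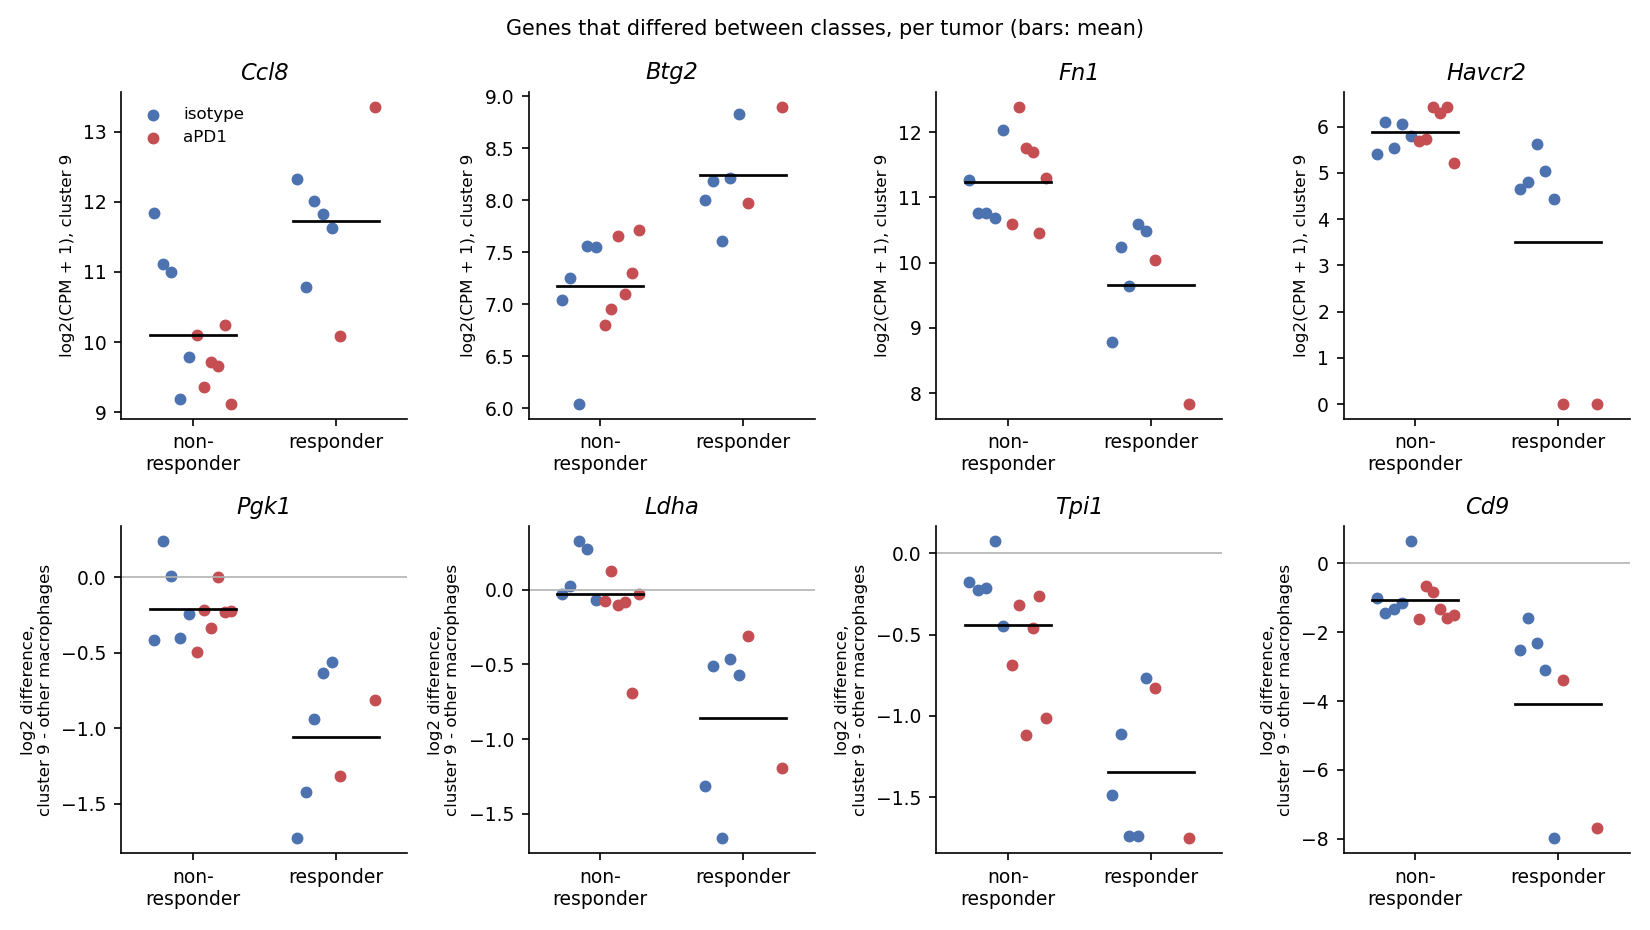
Top, level of Ccl8, Btg2, Fn1 and Havcr2 in cluster 9, as log2(CPM + 1), in the 11 non-responder and 7 responder tumors. Bottom, within-tumor difference, cluster 9 minus other macrophages, of Pgk1, Ldha, Tpi1 and Cd9 on the log2 scale, with 1 point per tumor (blue isotype, red aPD1) and bars at class means. The lower points of responder tumors for Pgk1 lie between −1.73 and −0.559, those of non-responder tumors between −0.494 and 0.239.

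A second comparison asked whether a class difference in cluster 9 went beyond that of the other macrophages of the same tumors, with each tumor as its own block. Unlike the first fit, it did not weight isotype and aPD1 equally within a class, since the difference had no term for treatment. The part of treatment in its calls was not tested. Here 7 of 10575 genes passed (0.0662%), all lower in responder strains, and 686 were at an unadjusted p under 0.05. Of the 7, 4 encode enzymes of glycolysis. The difference was −0.997 for Pgk1 (SE 0.17, adjusted p = 0.00529), −0.87 for Ldha (SE 0.17, adjusted p = 0.0209), −0.95 for Tpi1 (SE 0.19, adjusted p = 0.0209) and −0.65 for Gapdh (SE 0.14, adjusted p = 0.0473), all on the log2 scale by edgeR. Pgk1 averaged 328 CPM in cluster 9 and 378 CPM in the other macrophages of non-responder tumors, and 203 against 403 CPM in responder tumors. Within tumors, its difference ran from −0.494 to 0.239 (median −0.229) in the 11 non-responder tumors and from −1.73 to −0.559 (median −0.942) in the 7 responder tumors, without overlap. For Ldha the medians were −0.03 and −0.57, and those ranges overlap. Without pool 1 the adjusted p was 0.210 for Pgk1, 0.357 for Ldha and 0.236 for Tpi1, with differences of −0.85, −0.72 and −0.88. Ldha was also lost without pool 4 or 11, Tpi1 without pool 4 or 10, and Gapdh without any 1 of 8 pools.

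The other 3 genes were Mif, the macrophage migration inhibitory factor (−0.73, SE 0.16, adjusted p = 0.0473), the tetraspanin Cd9 (−1.68, SE 0.34, adjusted p = 0.0228) and the ribonuclease Rnase2a (−3.68, SE 0.77, adjusted p = 0.0320), again by edgeR. Rnase2a averaged 237 CPM in cluster 9 of non-responder tumors (0 to 1411, median 43.2) and 51.6 CPM in responder tumors (0 to 271, median 0). The other macrophages averaged 1.67 and 5.23 CPM, and the counts of Rnase2a may include those of close relatives. On a list of 12 glycolysis genes, drawn up after these calls were seen, 11 were negative with a median of −0.62 against −0.08 over all genes. The list holds the 4 called enzymes, so its counts are not separate from those calls. Pkm (−0.75, adjusted p = 0.0601) and Eno1 (−0.76, adjusted p = 0.0702) lay just outside the threshold, and Hk2 was the exception at 0.41. Other lists also lay away from the median with no gene called. Of 15 cell cycle genes 0 were positive (median −0.95), of 11 type I interferon-stimulated genes 1 (median −1.003) and of 8 MHC class II genes 0 (median −0.49). Such a difference can come from either population. H2-Eb1 averaged 1193 CPM in cluster 9 of non-responder and 1838 CPM in that of responder tumors, but 1694 and 3143 CPM in the other macrophages, which pool 9 clusters whose mix was not compared between classes. Of 11 immediate early and heat shock genes 9 were positive (median 0.37). The call of Mif was lost without any 1 of 7 pools (adjusted p up to 0.469), that of Rnase2a without any 1 of 5 (up to 0.469) and that of Cd9 without any 1 of 4 (up to 0.129), by edgeR, and pools 1 and 4 were among them each time. Without pool 1, which holds the CC001 and the CC079 tumor of 75 cells each, no gene passed, without pool 4 there was 1, without pool 2 there were 4 and without pool 12 there were 15. In pools 8 to 12 alone the genes called were Retnla (4.16, against −0.44 over all tumors) and Cxcl9 (2.53), with none of the 7.

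No gene passed for aPD1 against isotype in cluster 9. Of 3893 genes tested, 0 (0%) were called by edgeR in responder strains (190 at an unadjusted p under 0.05) and 0 (0%) in non-responder strains (94 at that level), and DESeq2 called 0 in each. The difference of the 2 effects gave 0 (0%) by edgeR (149 at that level) and 1 by DESeq2, Ftl1-ps1. Over all hosts, with strain as a covariate, 0 of 2148 genes (0%) were called by edgeR (60 at that level) and 0 by DESeq2. Only CC036, CC075 and CC079 had tumors of both treatments in that fit, so its aPD1 effect rests on these hosts alone. With the pool as a block, the first 3 of these comparisons each called 1 gene, Rnase2a. Responder strains had only 2 aPD1 tumors for this comparison, and neither came from CC001, which gave 3 of the 5 isotype tumors.

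The values behind these comparisons were as follows. In responder strains, all 12 interferon-gamma response genes tested had higher fitted levels with aPD1, with a median log2 fold change of 0.87 against −0.03 over all genes, but none passed, with Tap1 at 1.33 (SE 0.45, adjusted p = 0.818) and Cxcl9 at 2.23 (adjusted p = 0.945) by edgeR. All 6 MHC class II genes were positive (median 0.34). In non-responder strains 5 of 12 interferon-gamma response genes were positive (median −0.01) and 4 of 6 MHC class II genes (median 0.10). Over all hosts 1 of 5 and 0 of 6 were positive, in a fit that differed both in its tumors and in having strain as a covariate. Its aPD1 effect rests on CC036, CC075 and CC079, and can differ in sign from the gap between treatment means. Cd74, for example, had a log2 fold change of −0.48, with means of 7509 CPM (aPD1) and 5759 CPM (isotype).

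Among the markers, Retnla had 0 and 80.2 CPM in the 2 responder aPD1 tumors and 72.7 to 3272 CPM in the 5 responder isotype tumors (log2 fold change −4.92, SE 1.77, adjusted p = 0.891 by edgeR). Over all cluster 9 cells of responder strains the order was the opposite, at 1109 CPM with aPD1 (137 cells) and 953 CPM with isotype (203 cells). In non-responder strains Ccl8 had 554 to 1217 CPM in the 6 aPD1 tumors and 584 to 3684 CPM in the 5 isotype tumors (−1.14, SE 0.42, adjusted p = 1.00 by edgeR). Lyve1 had 5.91 to 411 CPM and 94.2 to 463 CPM in the same tumors (−0.29, adjusted p = 1.00 by edgeR). Relative to the other macrophages of the same tumors, aPD1 minus isotype gave 0 of 10086 genes (0%) by edgeR, with 459 at an unadjusted p under 0.05. DESeq2 was not run there. Ccl8 came closest among the markers, at −0.69 (SE 0.19, adjusted p = 0.708 by edgeR).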

How the data were processed

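The authors deposited raw UMI counts per gene and cell, with library, specimen, strain, treatment and cluster number of every cell. According to the study's methods, they used Cell Ranger count on GRCm38 with GENCODE vM23, removed cells of high mitochondrial or ribosomal content, and clustered in Seurat 5.0.1 after harmony correction for processing date. Treatment of doublets is not given in the sources used here, and no caller was run. The members and gene lists were chosen with earlier results of these data known, and genes named from the lists beyond those of smallest p were picked after their values were seen. Each tumor, a specimen with its own hashtag within a pool, counted as 1 replicate. P-values measure the spread between tumors, several of which share a strain. Levels are CPM of UMIs summed per tumor over cluster 9 cells, or over the other macrophages (clusters 2, 4, 5, 15, 17, 19, 21, 26 and 27), for tumors with at least 20 cells of cluster 9. Named were the 25 genes furthest above the other macrophages and the 10 furthest below, among genes of at least 50 CPM in the pooled cells of cluster 9 or of the other macrophages, respectively, up to 10 called genes in each direction with a mean of at least 20 CPM, up to 4 genes of each list, and the 5 markers.

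Genes were compared with edgeR 4.0.16 (glmQLFit and glmQLFTest, TMM, filterByExpr) in R 4.3.3, with Benjamini-Hochberg adjustment over all genes tested and a threshold of 0.05. DESeq2 1.42.0 was an alternative. Shares were compared with two-sided Wilcoxon rank-sum tests, exact, or with 100000 permutations where both groups had 10 or more tumors, adjusted over 14 tests, in scipy 1.17.1. Both were tested on simulated data. Pools pair the tumors because the labels name each pool as 1 library of 4 specimens, and fits with the pool as a replicate block were an alternative to the unblocked tests, which are given first. Comparisons with the other macrophages had the tumor as block. In that between classes treatment was not a term of the difference, and in that of aPD1 class and strain were not. Differences of log levels used a pseudocount of 1 CPM. Promoters are from RefSeq (GRCm38.p6). Intervals and limits cover counting error only. Some genes are not reported here.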

Additional observations from a re-analysis of the deposited data

Results flagged for a closer look

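In groups of 4 to 10 tumors, a tumor was singled out when its gap to the nearest other, over the range of the group, passed Dixon's 95% critical value. Of 69 groups tested 8 did. The chance rate of about 1 in 20 holds for independent groups of normally distributed values. These groups share tumors and include values of 0, so 8 of 69 cannot be read as an excess. The CC001 isotype tumor of pool 1 held 6.65% of its cells in cluster 9 (0 to 2.56% in the other 9 responder isotype tumors) and 8.92% of its macrophages (0 to 3.52%). Cd9 was at 598 CPM in the CC079 isotype tumor of pool 5 (71.8 to 207 CPM in the other 4 of its group). In the CC079 aPD1 tumor of pool 1, Ldha was at 912 CPM (482 to 633 CPM) and Rnase2a at 1411 CPM (0 to 502 CPM). Among responder isotype tumors, Ckap4 was at 48.5 CPM in CC001 of pool 4 (29.4 to 31.8 CPM), Gm10260 at 31.8 CPM in CC075 of pool 10 (0 in the other 4), and H2-T23 at 175 CPM in CC075 of pool 11 (318 to 364 CPM). Ckap4 at 48.5 CPM and Gm10260 at 31.8 CPM rest on 2 and 3 UMIs.

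For the share with aPD1, every pair of CC080 moved one way and every pair of CC001 and CC079 the other, from 3 or 4 pairs each. In CC080 the mean of aPD1 minus isotype was 1.14 percentage points of all cells (0.876 to 1.38 over 3 pairs) and 1.27 points of macrophages. In CC001 it was −2.27 (−6.43 to −0.162 over 4 pairs) and −3.02, and in CC079 −1.23 (−1.97 to −0.210 over 3 pairs) and −1.76. This difference was not tested. One CC080 pair member each in pools 3 and 4 carries the same animal number.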

How the results depend on the processing

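The shares depended on few hosts. Percentage points of all cells are followed by points of macrophages. Responder minus non-responder under isotype (−0.134 and −0.306) turned positive in pools 1 to 5 (0.0782 and 0.0416), without CC002 (0.414 and 0.414), without CC075 (0.0999 and 0.0134), without CC079 (0.320 and 0.206) and, for all cells, without tumors of fewer than 500 cells (0.0174). Leaving out 1 pool at a time it ran from −0.550 to 0.238 and from −0.922 to 0.193. aPD1 minus isotype without CC001 was 0.307 and 0.499 in responder strains and 0.175 and 0.140 over all hosts, which ran from −0.396 to 0.107 and from −0.560 to 0.0619 without single pools. In non-responder strains it was 0.461 and 0.330 without CC079 and, for all cells, 0.127 in pools 8 to 12 and −0.483 to 0.162 without single pools. The difference of the 2 effects was 0.410 and 0.865 without CC001, 0.0184 and 0.268 as a log2 ratio and, for macrophages, 0.275 without CC080 and −1.10 to 0.112 without single pools. None of these passed adjustment, and a permutation test of means gave p = 0.0460 (adjusted p = 0.596) for responder against non-responder under aPD1.

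Between classes, the 8 genes became 73 with no filter on low counts, 18 by DESeq2, 5 without the tumors that share an animal number, 4 with cells of at least 1000 UMIs, 3 in pools 8 to 12, and 1 each without cells holding a marker of another type, without shared barcodes, with counts summed per strain and with the pool as a replicate block. Without single pools there were 1 to 9. The cause of these changes was not tested. The marker setting left out cells with a T and NK, B, fibroblast, endothelial and lymphatic, or epithelial and MC38 marker. It did not leave out cells with dendritic or granulocytic markers. Lyve1 turned positive with the block (0.40), and Cd163 with the block (0.61) and in pools 1 to 5 (0.33). The class difference beyond other macrophages, with 7 genes, gave 4 with DESeq2's size factors, 4 with library size alone, 4 without shared barcodes, 11 with no filter, 38 in pools 1 to 5, 2 in pools 8 to 12, 21 with at least 50 cells per tumor (1 responder tumor against 3, the lone tumor assumed to vary like the others), 1 with at least 10, 1 with at least 1000 UMIs, 1 without marker-holding cells, and 0 to 15 without single pools. Rnase2a was at 0.0019 in pools 8 to 12.

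For aPD1, 0 genes became 17 in responder strains, 12 in non-responder strains, 12 for their difference and 3 over all hosts with no filter, and 1 in each of the first 3 with the block. At least 50 cells per tumor gave 121 in non-responder strains, where 1 CC036 aPD1 tumor stood against 2 CC079 isotype tumors, so that strain and treatment cannot be told apart and the lone tumor is assumed to vary like the others. It gave 7 beyond other macrophages, from 5 tumors. That last comparison gave 3 in pools 1 to 5, 1 in pools 8 to 12 and 0 to 2 without single pools. The difference of effects gave 1 by DESeq2 and 1 with at least 10 cells, and all hosts 1 in pools 1 to 5. At least 50 cells per tumor left too few tumors for the class test, aPD1 in responder strains, the difference of effects and all hosts. The block changed no other call. Neither DESeq2 nor the pool block was run beyond other macrophages, where the tumor was the block. Of the shares and counts, 493 values stayed within their limits, 48 moved and 32 reversed, and of the values of single named genes 275 stayed, 177 lost the threshold, 3 gained it and 4 reversed. Of 48 tumors, 28 held fewer than 20 cells of cluster 9 and did not enter the gene tests. The settings without shared animal numbers and without shared barcodes were chosen after seeing the data.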

Other observations

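Pooled over all tumors, Timd4, a phosphatidylserine receptor of some resident macrophages, was at 11.8 CPM in cluster 9, and at 156 CPM in cluster 6, 210 CPM in cluster 11 and 112 CPM in cluster 14. Retnla was at 690 CPM in cluster 14 as well.

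The share of cluster 9 among all cells was set against that of each of 26 other clusters over the 45 tumors of at least 500 cells, a family of relations chosen after seeing the data. None passed after adjustment. Tumors of a host or of a pool are not independent, and the shares of a tumor are parts of the same total, which limits these p-values. Cluster 13 had Spearman's rho of −0.436 (permutation p = 0.00343, adjusted p = 0.0892) and Pearson's r of −0.261 (permutation p = 0.0688, adjusted p = 0.741). Without the 2 tumors farthest from the median r was −0.342. Spearman's correlation was −0.429 within pools 1 to 5 (n = 20) and −0.490 within pools 8 to 12 (n = 19). Cluster 19, a macrophage cluster, had rho of 0.322 (permutation p = 0.0319, adjusted p = 0.219) and r of 0.404 (permutation p = 0.00483, adjusted p = 0.126), with rho of 0.573 within pools 1 to 5 and 0.0764 within pools 8 to 12.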
